A study of Mus musculus with 9 samples.

Results

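The 10 genes described here are the usual markers of alternative and classical macrophage activation. The symbols Arg1, Arg2, Nos2, Chil3, Retnla, Mgl2, Clec10a, Il4ra, Egr2 and Ptgs2 were taken by symbol from the deposited gene table. All 10 were found among its 24411 genes. The table covers 9 RNA-seq libraries of mouse macrophage lines, 3 grown from yolk sac (YS), 3 from fetal liver (FL) and 3 from bone marrow (BM). The C57BL/6 donors were embryos for the YS lines (E9.5) and FL lines (E14.5) and adults for the BM lines, so tissue, age and culture history cannot be told apart. Every group was kept in medium with recombinant human M-CSF, the growth factor these cells depend on, carried no stated genetic change, and has no activating stimulus in its labels. Starting cells were pooled from several mice and a line is the bulk culture from a separate dish or well, so the p-values here measure the spread between lines and not between animals.

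Macrophages are described along an axis of activation, from the classical state induced by interferon-γ and bacterial products to the alternative state induced by interleukin-4 and interleukin-13. Interleukin-4 binds a receptor whose α chain is encoded by Il4ra, Janus kinases then phosphorylate STAT6, and STAT6 drives genes such as Arg1, Chil3, Retnla, Mgl2, Clec10a and Egr2 in mouse macrophages. Genes of the classical state include Nos2, which makes nitric oxide from arginine, and Ptgs2, the inducible cyclooxygenase of prostaglandin synthesis. Arginase 1 and nitric oxide synthase 2 compete for the same amino acid, which is why these enzymes are the usual pair of markers, and Arg2 encodes the mitochondrial arginase.

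Values are TPM, a level per transcript length that is scaled to the same sum in every library. The depth of the libraries is unknown. Between 13345 and 14322 genes were above 0 in a library, and 1 of 72 ribosomal protein genes, Rpl26, was at 0 in some library, so a gene without signal is reported as listed at 0. All 8 macrophage markers, among them Csf1r, Adgre1 and Cd68, were detected. Their summed level ranged from 4215 to 9309 TPM across the YS lines, from 11786 to 28521 across the FL lines and from 11717 to 13300 across the BM lines. The sum weighs Lyz2 most, the highest of the 8 in every line. Lyz2 was at 1163 to 3531 TPM in YS, 5806 to 21976 in FL and 5986 to 7841 across the BM lines. Single markers differed from the sum: Fcgr1 was at 122 to 330 TPM in YS, 110 to 172 in FL and 1.68 to 42.10 across the BM lines. YS line 1 had the lowest sum, and BM line 2 carried 331 TPM of erythroid markers, against at most 14.5 in any other line. These 2 lines stood apart from their groups at several genes below, and the member and list counts are therefore also given without them. The mast cell, lymphocyte and eosinophil marker lists each summed to at most 1.68 TPM in every line, and markers of other cells are given beside Clec10a.

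Promoter sequence is shown for the genes on which the comparison turns, the alternative markers listed at 0 (Retnla, Chil3) and the receptor, transcription factor and enzyme that were not (Il4ra, Egr2, Ptgs2). RefSeq windows of 300 bases on GRCm38.p6, 250 before to 50 after the transcription start, were found for 6 of the 10 genes, and Arg1, Arg2, Nos2 and Clec10a had none. Capitals mark matches, on either strand, to short motifs that were chosen after these sequences had been seen: the STAT6-type palindrome TTCNNNNGAA, the CArG box bound by serum response factor, the core CGTCA of the cyclic AMP response element, the E-box CACGTG, the palindrome TTGCGCAA of C/EBP factors, and TATAAA. A match is one of letters, and binding was not measured. Each sequence is written 5′ to 3′ on the strand of its gene.
Retnla, chr16:48842359-48842658, plus strand: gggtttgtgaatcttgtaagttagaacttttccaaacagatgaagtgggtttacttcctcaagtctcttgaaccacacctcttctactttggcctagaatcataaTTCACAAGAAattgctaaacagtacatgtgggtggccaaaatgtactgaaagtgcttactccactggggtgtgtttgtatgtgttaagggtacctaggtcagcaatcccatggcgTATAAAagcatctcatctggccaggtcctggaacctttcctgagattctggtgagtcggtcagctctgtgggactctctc
Chil3, chr3:106167515-106167814, minus strand: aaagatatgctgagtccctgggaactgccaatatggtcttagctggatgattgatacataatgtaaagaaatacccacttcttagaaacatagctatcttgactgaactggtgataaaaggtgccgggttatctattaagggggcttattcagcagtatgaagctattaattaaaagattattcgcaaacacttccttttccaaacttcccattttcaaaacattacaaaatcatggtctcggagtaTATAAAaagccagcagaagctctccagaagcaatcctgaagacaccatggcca
Il4ra, chr7:125552021-125552320, plus strand: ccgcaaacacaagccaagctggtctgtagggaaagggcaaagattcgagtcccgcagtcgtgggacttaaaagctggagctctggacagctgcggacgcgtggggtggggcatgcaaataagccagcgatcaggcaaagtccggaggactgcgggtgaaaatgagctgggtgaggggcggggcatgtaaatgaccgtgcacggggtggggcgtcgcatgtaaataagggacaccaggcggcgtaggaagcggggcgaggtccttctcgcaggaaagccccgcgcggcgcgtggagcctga
Egr2, chr10:67537619-67537918, plus strand: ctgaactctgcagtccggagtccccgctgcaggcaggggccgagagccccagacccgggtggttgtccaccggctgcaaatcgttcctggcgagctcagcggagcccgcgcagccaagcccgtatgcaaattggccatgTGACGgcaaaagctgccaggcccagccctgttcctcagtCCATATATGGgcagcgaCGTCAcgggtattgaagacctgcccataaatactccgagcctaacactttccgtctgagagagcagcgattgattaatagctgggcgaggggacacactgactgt
Ptgs2, chr1:150099781-150100080, plus strand: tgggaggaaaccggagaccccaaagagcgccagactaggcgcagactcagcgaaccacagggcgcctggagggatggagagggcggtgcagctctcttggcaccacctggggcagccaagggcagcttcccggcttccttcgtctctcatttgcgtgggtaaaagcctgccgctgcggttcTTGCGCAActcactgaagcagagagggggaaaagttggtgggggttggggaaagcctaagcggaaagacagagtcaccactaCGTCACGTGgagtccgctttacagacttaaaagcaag

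The Retnla window holds TTCACAAGAA, a STAT6-type match that begins 145 bases before the start, and a TATAAA at 30 bases before it. Of all 32851 promoter windows, 6.95% hold a STAT6-type match and 13.6% hold TATAAA. The Chil3 window holds a TATAAA at 3 bases before the start and no other of these motifs. None of these motifs matched in the Il4ra window or in that of Mgl2 (chr11:70130107-70130406, plus strand), which says only that these letters are not there. Of the 5 annotated Egr2 windows, the one shown has a CArG box 72 bases before the start, a motif in 1.63% of windows, and matches to CGTCA at 111 and 55 bases before it (20.8% of windows). In the Ptgs2 window, TTGCGCAA lies 69 bases before the start and occurs in 0.183% of all windows, while CGTCA and the overlapping CACGTG (7.15% of windows) follow the start.

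Of the 10 genes, 4 reached 1 TPM in at least 3 of the 9 libraries and were tested, namely Clec10a, Il4ra, Egr2 and Ptgs2. The other 6 stayed below 1 TPM in every line. The test was limma on log2(TPM + 1) over 11753 genes and all 9 libraries, with Benjamini-Hochberg adjustment. A gene was called at a false discovery rate under 0.1 with more than a 2-fold difference. Fold changes on this scale are compressed for genes of a few TPM. YS lines differed from BM lines by 3 called members, 2 higher (Clec10a, Il4ra) and 1 lower (Egr2), where 12.8% of all tested genes were called (7.57% higher, 5.22% lower). FL lines differed from BM lines by 4 called members, the same 2 higher, and Egr2 and Ptgs2 lower, where 10.3% of tested genes were called (6.01% higher, 4.30% lower). YS lines differed from FL lines by 2 called members, Ptgs2 higher and Clec10a lower, where 3.79% were called (1.95% higher, 1.85% lower). The first 2 comparisons share the BM lines, and the 4 tested members were those that had passed the filter on low values. Without YS line 1 and BM line 2, the numbers of called members were again 3, 4 and 2.

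**Figure D1:**
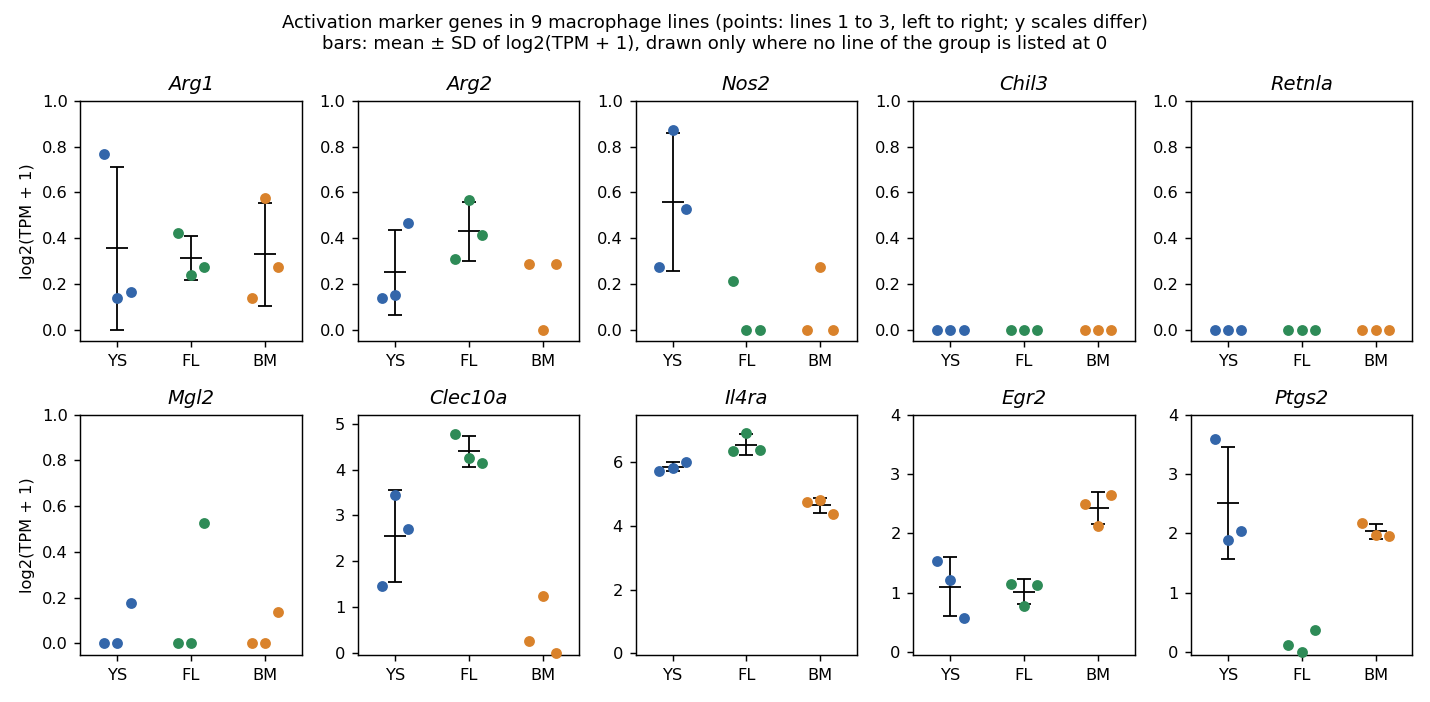
Level of the 10 activation markers in each line, as log2(TPM + 1), with the 3 lines of each group as points (YS blue, FL green, BM orange) and bars for the mean ± SD where no line of the group is listed at 0. Il4ra and Clec10a lay highest in the FL lines and lowest in the BM lines, Egr2 was highest in the BM lines, Ptgs2 was near 0 in the FL lines, and the other 6 genes stayed below 1 TPM.

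Il4ra, the shared α chain of the receptors for interleukin-4 and interleukin-13, was the most abundant member in all 9 lines. It measured 52.54, 55.94 and 64.14 TPM in YS lines 1 to 3. It measured 81.01, 120.62 and 82.99 TPM in the FL lines. In the BM lines it measured 25.77, 27.39 and 19.66 TPM. The groups did not overlap, and the order was FL over YS over BM. Of all tested genes, 49.0% likewise separated the YS from the BM lines without overlap, 49.5% the FL from the BM lines, and 26.1% the YS from the FL lines. The group means were 57.5 ± 5.96 TPM in YS, 94.9 ± 22.3 in FL and 24.3 ± 4.08 across the BM lines (SD, n = 3 each). In YS lines the mean exceeded that in BM lines 2.37-fold, a difference of 1.22 in log2(TPM + 1) (SE 0.19, 95% interval 0.80 to 1.65, limma adjusted p = 0.0037). The FL mean was 3.91 times the BM mean, a log2 difference of 1.91 (SE 0.19, 95% interval 1.49 to 2.34, limma adjusted p = 0.00066). YS lines lay below FL lines by 0.69 on the log2 scale (95% interval -1.12 to -0.27, limma adjusted p = 0.068), under 2-fold and so not called. Placed among all tested genes, the mean of Il4ra exceeded 70.6% of them for the YS, 82.6% for the FL and 49.0% for the BM lines. Its pooled SD within groups was 0.25 on the log2 scale, and 54.5% of tested genes had a smaller one.

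The transcription factor and the common chain of the receptor system were called in no comparison. Stat6, the transcription factor downstream of the receptor, was at 151.21, 145.68 and 169.61 TPM across the YS lines, 168.44, 207.31 and 185.58 across the FL lines, and 169.89, 154.92 and 172.47 across the BM lines, and did not pass the threshold (limma adjusted p = 0.55 for YS against BM, 0.32 for FL against BM and 0.18 for YS against FL). Il2rg, the common γ chain that completes the type I receptor, had lines 1 and 3 of YS far apart, at 43.05 and 351.55 TPM. Il13ra1, the chain that completes the type II receptor, ranged from 0.57 to 1.01 TPM across the YS lines, from 0.52 to 2.90 across the FL lines and from 0.15 to 0.20 across the BM lines, and did not pass the filter. Its BM values lay below those of every other line. The decoy chain Il13ra2 was highest in BM lines at 0.92, 1.92 and 1.19 TPM and at most 0.82 elsewhere. The ligands were at most 0.29 TPM (Il4) and 0.11 TPM (Il13), each above 0 in 1 FL line. Of the kinases, Tyk2 was called higher in YS than in BM lines (log2 difference 1.12, limma adjusted p = 0.024), with YS line 3 highest at 111.71 TPM. Jak1 passed the false discovery rate but not the 2-fold limit for FL over BM (0.66, limma adjusted p = 0.019) and YS over BM (0.44, limma adjusted p = 0.066). Jak3 was called in no comparison.

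Clec10a encodes a galactose-type C-type lectin of macrophages and dendritic cells, and Mgl2 encodes its neighbouring paralogue. Clec10a measured 1.76, 9.91 and 5.54 TPM in YS lines 1 to 3. Its level in the FL lines was 26.52, 18.17 and 16.78 TPM. In BM lines 1 to 3 it was 0.20 TPM, 1.34 TPM and listed at 0. The 3 groups did not overlap, in the same order as for Il4ra, and the spread within YS and BM lines was wide. YS lines averaged 5.74 ± 4.08 TPM and FL lines 20.5 ± 5.27 (SD, n = 3 each). On the log2(TPM + 1) scale, YS lines exceeded BM lines by 2.04 (SE 0.51, 95% interval 0.89 to 3.20, limma adjusted p = 0.02). FL lines exceeded BM lines by 3.90 (SE 0.51, 95% interval 2.75 to 5.05, limma adjusted p = 0.0017). FL lines exceeded YS lines 3.57-fold in mean TPM, and the log2 difference of YS minus FL was -1.86 (95% interval -3.01 to -0.71, limma adjusted p = 0.069). That last call was lost, at a difference of -1.32 and a limma adjusted p of 0.10, without YS line 1. It was also lost without FL line 1, 2 or 3 (0.13, 0.16 and 0.15) and without BM line 1 or 3 (0.12 and 0.11). Without BM line 2, the BM line with the highest Clec10a, the difference from BM was 2.41 for YS and 4.27 for FL. The pooled SD within groups was 0.72 on the log2 scale, above that of 91.7% of tested genes.

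Markers of other cell types were set beside Clec10a, since dendritic cells also carry it. Dendritic cell markers summed to 7.23 to 8.37 TPM across the YS lines, 2.97 to 6.89 across the FL lines and 3.21 to 3.74 across the BM lines, and of the 6 only Zbtb46 reached 1 TPM. The dendritic markers Flt3 and Cd209a were listed at 0 in every line. Of 8 neutrophil markers, 7 were in the table, S100a8 alone reached 1 TPM and the sum was 0.06 to 2.51 TPM across the YS lines, 10.6 to 25.6 across the FL lines and 3.66 to 5.00 across the BM lines. The 8 stromal and endothelial markers summed to 0.78 TPM in YS line 1, 17.1 and 55.8 in the other YS lines, 18.7 to 51.7 across the FL lines and at most 2.11 across the BM lines. The growth factor receptor gene Kdr made up most of the sum in YS lines 2 and 3 and the FL lines, at 16.08 to 54.35 TPM, and was at most 0.86 TPM in YS line 1 and the BM lines. Of the 8, only 2 reached 1 TPM in any line, Kdr and Cdh5, the latter at most 1.38 TPM. Kdr was thus high in the lines in which Clec10a was above 5 TPM, but did not follow its level among them. Kdr was highest in YS line 3, where Clec10a was at 5.54 TPM, and at 17.37 TPM in FL line 1, where Clec10a was highest. The part of Kdr in the result was not tested. In bulk libraries, fewer cells that express a gene and less RNA of it per cell cannot be told apart.

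Mgl2 was listed at 0 in 6 lines and measured 0.13 TPM in YS line 3, 0.44 in FL line 3 and 0.10 in BM line 3. No group stood above another. Mgl2 and Clec10a lie next to each other on chromosome 11. In GENCODE M21 transcripts, 148 of the 3331 stretches of 75 bases in Clec10a (4.44%) are identical in Mgl2, and reads from these stretches cannot be told apart.

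Chil3, which encodes the chitinase-like protein Ym1, and Retnla, which encodes the secreted protein FIZZ1, were listed at 0 in all 9 lines. Of their relatives, Chil1, Chil4, Chit1, Retnlb and Retnlg were listed at 0 in every line too, Chia1 reached 0.10 TPM in 1 BM line, and resistin (Retn) at most 0.58. In Chil3, 208 of 1606 stretches of 75 bases (13.0%) are shared with Chil4 and Gm6522. Retnla shared none with another gene.

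Arginase genes were low as well. Arg1, the cytosolic arginase of alternative activation, measured 0.70, 0.10 and 0.12 TPM across the YS lines, 0.34, 0.18 and 0.21 across the FL lines, and 0.10, 0.49 and 0.21 across the BM lines. YS line 1 and BM line 2 held the highest values and the groups overlapped. For Arg2, the mitochondrial form, the values were 0.10, 0.11 and 0.38 TPM across the YS lines, 0.24, 0.48 and 0.33 across the FL lines, and 0.22, 0 and 0.22 across the BM lines. Every FL line was above every BM line, with an exact two-sided permutation p of 0.1, the smallest that 3 lines against 3 can give. The nearest values were 0.24 and 0.22 TPM, and 49.5% of tested genes separated FL from BM lines without overlap. When no filter on low values was set, the limma difference of FL over BM was 0.24 on the log2 scale (adjusted p = 0.28).

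Nos2 encodes the inducible nitric oxide synthase, the enzyme on the classical side of the pair. It measured 0.21, 0.83 and 0.44 TPM across the YS lines and 0.16 TPM in FL line 1, with the other FL lines listed at 0. In BM lines it measured 0.21 TPM in line 2 and was listed at 0 in lines 1 and 3. YS lines were all above FL lines (exact two-sided permutation p = 0.1, the smallest possible), while YS line 1 and BM line 2 had the same value. Of all tested genes, 26.1% separated YS from FL lines without overlap. When no filter on low values was set, the limma difference of YS over BM was 0.47 in log2(TPM + 1) (adjusted p = 0.075). That of YS over FL was 0.49 (adjusted p = 0.13). Both were under the 2-fold limit on this scale, which is compressed at such levels. In mean TPM, YS lines were 7.05 times BM lines and 9.25 times FL lines. All these levels were below 1 TPM.

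Ptgs2, the inducible cyclooxygenase, was detected in YS and BM lines and near 0 across the FL lines. It measured 11.06, 2.68 and 3.13 TPM in YS lines 1 to 3. In the FL lines it was 0.08 TPM, listed at 0, and 0.29 TPM. The BM lines had 3.52, 2.91 and 2.86 TPM. Every FL line lay below every other line, while YS and BM lines overlapped and YS line 1 stood well above the rest. The mean was 5.62 ± 4.71 TPM in YS and 3.10 ± 0.367 across the BM lines (SD, n = 3 each). FL lines were lower than BM lines by a log2(TPM + 1) difference of -1.87 (95% interval -2.82 to -0.92, limma adjusted p = 0.016). YS lines exceeded FL lines by 2.35 (95% interval 1.40 to 3.29, limma adjusted p = 0.026), and by 1.80 without YS line 1 (limma adjusted p = 0.013). YS and BM lines did not differ at the threshold, with a difference of 0.48 (95% interval -0.47 to 1.42, limma adjusted p = 0.42) that turned to -0.07 without YS line 1. At the level of the single gene, the FL lines thus had the highest Il4ra and Clec10a and the lowest Ptgs2.

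Egr2 encodes a zinc finger transcription factor that is induced downstream of STAT6 and also by growth factor signalling. It measured 1.88, 1.32 and 0.48 TPM across the YS lines and 1.21, 0.71 and 1.18 TPM across the FL lines. The BM lines had 4.60, 3.35 and 5.28 TPM. Every BM line lay above every YS and FL line, whereas Il4ra and Clec10a were lowest there. The means were 1.23 ± 0.705 TPM in YS, 1.03 ± 0.280 in FL and 4.41 ± 0.979 across the BM lines (SD, n = 3 each), so BM lines were 3.60 times the YS and 4.27 times the FL mean. The log2(TPM + 1) difference was -1.32 for YS minus BM (SE 0.29, 95% interval -1.98 to -0.66, limma adjusted p = 0.013). For FL minus BM it was -1.40 (SE 0.29, 95% interval -2.06 to -0.75, limma adjusted p = 0.011). YS and FL lines overlapped, and their difference of 0.09 had a 95% interval from -0.57 to 0.75 (limma adjusted p = 0.87).

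Over all tested genes the median log2 difference was 0.11 for YS over BM, 0.09 for FL over BM and 0.02 for YS over FL. Quantile normalization brought the first of these to -0.01, and the YS over BM difference was then 1.08 for Il4ra, 1.95 for Clec10a and -1.51 for Egr2, each called as before.

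**Figure D2:**
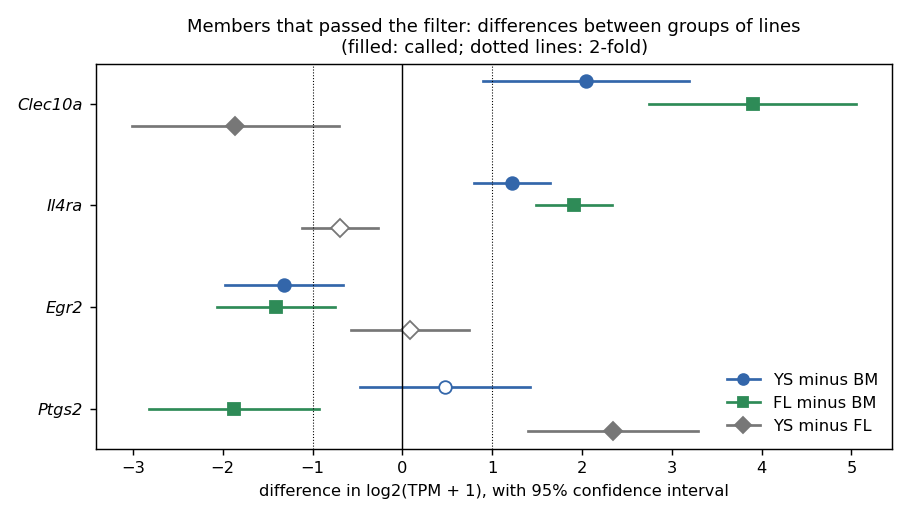
Differences in log2(TPM + 1) between groups for the 4 tested members, with 95% intervals (circles YS minus BM, squares FL minus BM, diamonds YS minus FL, filled where called, dotted lines at 2-fold). Clec10a and Il4ra lay to the right of 0 against BM lines, Egr2 to the left, and Ptgs2 to the left only for FL against BM.

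The other Egr genes did not share the pattern of Egr2 in full. Egr1, an immediate early gene, was at 4.18, 3.83 and 3.56 TPM across the YS lines, 3.18, 5.67 and 4.10 across the FL lines, and 8.98, 11.14 and 6.60 across the BM lines. It was lower in YS than in BM lines (limma adjusted p = 0.016), just past the 2-fold limit on the log2 scale, and at a log2 difference of -0.90 in FL against BM lines it was not called. Egr3 was highest in YS lines at 8.79, 4.23 and 1.72 TPM, against 0.64 to 0.96 in FL and 0.74 to 2.34 across the BM lines. It was called higher in YS than in BM lines (1.10, limma adjusted p = 0.097) and than in FL lines (1.52, limma adjusted p = 0.083). Of the 12 relatives listed, 4 were tested, of which 2 were called in YS against BM and 1 in YS against FL, while in FL against BM Egr1 passed the false discovery rate but not the 2-fold limit. Over all tested genes, 12.8% were called in YS against BM, 3.79% in YS against FL and 10.3% in FL against BM. The count for YS against BM was 0 without BM line 1 or 2 and 1 without any other line, that for YS against FL was 0 without any line but YS line 3, and that for FL against BM was 1 without FL line 2 or BM line 3. Without YS line 1 and BM line 2 no limma call of a relative was left. The Egr co-repressors Nab1 and Nab2 were expressed in every line, at 36.79 to 49.78 and 20.85 to 66.89 TPM, and called in no comparison.

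The genes with a pattern over the 9 libraries most like that of each tested member were ranked by Pearson's r of log2(TPM + 1). This is a description in which all values share the same libraries, and r does not compare absolute levels. For Clec10a they were Adk, which encodes adenosine kinase (r = 0.994), Rgs7bp (0.990), which encodes a binding protein of G protein regulators, and Pdlim4 (0.978). Rgs7bp followed it closely, at 1.11, 8.11 and 6.07 TPM across the YS lines, 24.96 to 26.64 across the FL lines, and 0, 0.90 and 0 across the BM lines. For Il4ra they were Dusp6, a phosphatase of ERK kinases (r = 0.985), Gab3 (0.985), an adaptor in M-CSF receptor signalling, and Rhob (0.984). Egr2 was followed by the centromere gene Cenpm (0.985), the mitochondrial peroxiredoxin gene Prdx3 (0.983) and Arrdc4 (0.983). Ptgs2 was followed by the ribosomal protein gene Rps9 (0.981), 2610318N02Rik (0.973) and Msra (0.972), which encodes a methionine sulfoxide reductase. Among the members themselves, r was 0.925 for Clec10a with Il4ra, -0.920 for Il4ra with Egr2, -0.847 for Clec10a with Egr2, -0.742 for Clec10a with Ptgs2, -0.596 for Il4ra with Ptgs2, and 0.415 for Egr2 with Ptgs2.

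In a list of 32 genes of the interleukin-4 and interleukin-13 pathway, 20 were tested. Against BM lines, YS lines had 6 called higher (Tyk2, Socs1, Batf3, Mrc1, Ccl24, Slc7a2) and 3 lower (Klf4, Pparg, Tgm2), with a median log2 difference of 0.43 against 0.11 over all tested genes. FL lines had 2 higher (Irf4, Mrc1) and 2 lower (Pparg, Tgm2) than BM lines, with a median of 0.40 against 0.09. Between YS and FL lines, 2 were called, both lower in YS (Irs2, Klf4), with a median of 0.13 against 0.02. The list therefore held called genes in both directions. Over all tested genes, the shares called in these comparisons were 12.8%, 10.3% and 3.79%. The count of 9 for YS against BM was 5 without BM line 1 and 8 without YS line 1 and BM line 2. The 2 for YS against FL were 0 without FL line 2 or 3 or BM line 1 or 2, 1 without YS line 1 or BM line 3, and 4 without YS line 3.

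Mrc1, the mannose receptor used as a surface marker of alternative activation, was at 278.06, 268.04 and 410.55 TPM across the YS lines and 541.32, 566.57 and 447.26 TPM across the FL lines. In BM lines it was listed at 0, at 40.20 TPM and at 0.06 TPM. BM line 2 was the only BM line with a level above 1 TPM, as it was for Clec10a. The log2 difference was 6.48 for YS over BM (limma adjusted p = 0.0076) and 7.20 for FL over BM (limma adjusted p = 0.005). Without BM line 2 these differences were 8.25 and 8.97, and without BM line 1 or 3 they were 5.57 or 5.61 and 6.29 or 6.33, each called. Tgm2, transglutaminase 2, a marker of the same state, lay the other way, at 8.70, 15.51 and 5.84 TPM across the YS lines, 0.73, 4.49 and 5.33 across the FL lines, and 211.06, 166.84 and 183.67 across the BM lines. Its log2 difference was -4.18 for YS minus BM (limma adjusted p = 0.0016) and -5.58 for FL minus BM (limma adjusted p = 0.00047). Pparg, a nuclear receptor that supports alternative activation, lay at 16.74 to 26.24 TPM across the BM lines, above the 2.43 to 4.97 of FL lines and the 0.25, 2.26 and 13.00 of YS lines. Its call for FL against BM was lost when any 1 of the BM lines, or FL line 2 or 3, was left out (limma adjusted p from 0.11 to 0.15), and that for YS against BM without BM line 1 (limma adjusted p = 0.1) or without both YS line 1 and BM line 2 (limma adjusted p = 0.12). Irf4, a transcription factor of the same state, was at most 0.03 TPM across the BM lines, 0.75 to 3.82 across the FL lines and 0.49 to 1.60 across the YS lines. Socs1, a feedback inhibitor of Janus kinases, measured 3.77 to 6.46 TPM across the YS lines and 0.51 to 2.26 across the BM lines (log2 difference 1.40, limma adjusted p = 0.081), a call that was lost when BM line 1 or 3, FL line 3 or any 1 of the YS lines was left out (limma adjusted p from 0.1 to 0.23). The chemokine Ccl24 was higher in YS lines (1.82 to 6.19 TPM) than in BM lines (0.11 to 0.36 TPM), at a limma adjusted p of 0.013, while Ccl17 was at most 0.63 TPM in any line. Batf3, a transcription factor also known from dendritic cells, was uneven, at 51.97 TPM in YS line 1 against 7.62 and 3.78 in the other YS lines, and its difference from BM lines was 2.37 in log2 with all lines and 1.36 without YS line 1. The Batf3 call was lost when any 1 of the BM lines was left out (limma adjusted p from 0.12 to 0.15) and without YS line 1 and BM line 2 together (limma adjusted p = 0.2). Klf4 and Irs2 had their lowest values in the same line, at 2.67 and 0.04 TPM, and without it Klf4 was lower in YS than in BM lines by less than 2-fold (log2 difference -0.52). The Klf4 call was also lost when any 1 of the FL or BM lines was left out (limma adjusted p from 0.11 to 0.2).

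In a list of 31 classical activation genes, 22 were tested. YS lines had 8 called higher than BM lines (Il27, Cxcl10, Cxcl11, Ccl5, Cd40, Cd86, Gbp5, Slc7a11) and 1 lower (Cd80), with a median log2 difference of 0.74 against 0.11 over all tested genes. FL lines had 5 higher than BM lines (Il1b, Ccl5, Cd40, Cd86, Marco), the whole of their calls in this list, with a median of 0.53 against 0.09. YS and FL lines differed at 2 of the 22, Slc7a11 higher and Marco lower in YS, with a median of 0.62 against 0.02. Against BM lines, Cxcl11 and Slc7a11 in YS were near the threshold (limma adjusted p = 0.081 and 0.082). Groups overlapped for Cxcl11 in YS against BM and for Ccl5 in FL against BM. Marco was uneven, at 80.63, 678.32 and 464.26 TPM across the FL lines and 0.29, 61.80 and 4.14 across the YS lines. Over all tested genes, the shares called were 12.8%, 10.3% and 3.79% in these 3 comparisons. The 9 called for YS against BM were 5 without BM line 1, and 10 without YS line 1 and BM line 2. For FL against BM the 5 became 7 without those lines, 3 without FL line 1 or 3, and 2 without BM line 1 or 3. The 2 for YS against FL were 1 without FL line 2 or BM line 2 or 3, and 0 without FL line 3 or BM line 1.

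Cd86, a costimulatory ligand for T cells, was at 65.91, 63.74 and 59.90 TPM across the YS lines, 44.92, 5.64 and 23.00 across the FL lines, and 0.06, 7.30 and 0 across the BM lines. The YS values lay above all others, and BM line 2 was above FL line 2. The log2 difference was 4.96 for YS over BM (limma adjusted p = 0.0064) and 3.23 for FL over BM (limma adjusted p = 0.035). Without BM line 2 they were 5.96 and 4.24, and the call for FL was lost without BM line 1 or 3 or FL line 1 (limma adjusted p = 0.13, 0.13 and 0.11). Cd40, the receptor for T cell help, was at 13.50 to 16.76 TPM across the YS lines, 6.26 to 27.68 across the FL lines and 0.37 to 2.66 across the BM lines. Cd80, the relative of Cd86, was higher in BM lines (15.50 to 29.72 TPM) than in YS lines (7.09 to 12.34 TPM). The interferon-induced chemokine Cxcl10 measured 66.68, 351.19 and 589.07 TPM across the YS lines and 10.91 to 53.52 across the BM lines, and Ccl5 60.97 to 263.21 and 1.27 to 20.27 TPM. The Cxcl10 difference of YS over BM was 3.37 in log2 and lost its call without BM line 1 or 3 (limma adjusted p = 0.11 and 0.13). Tnf was at 50.74 to 137.22 TPM in all lines and was not called. Il12a was listed at 0 in every line, Il12b was at most 0.20 TPM, and Il6 was above 1 TPM only in YS line 3, at 2.55 TPM. Il1b was at most 3.42 TPM, in FL line 1.

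**Figure D3:**
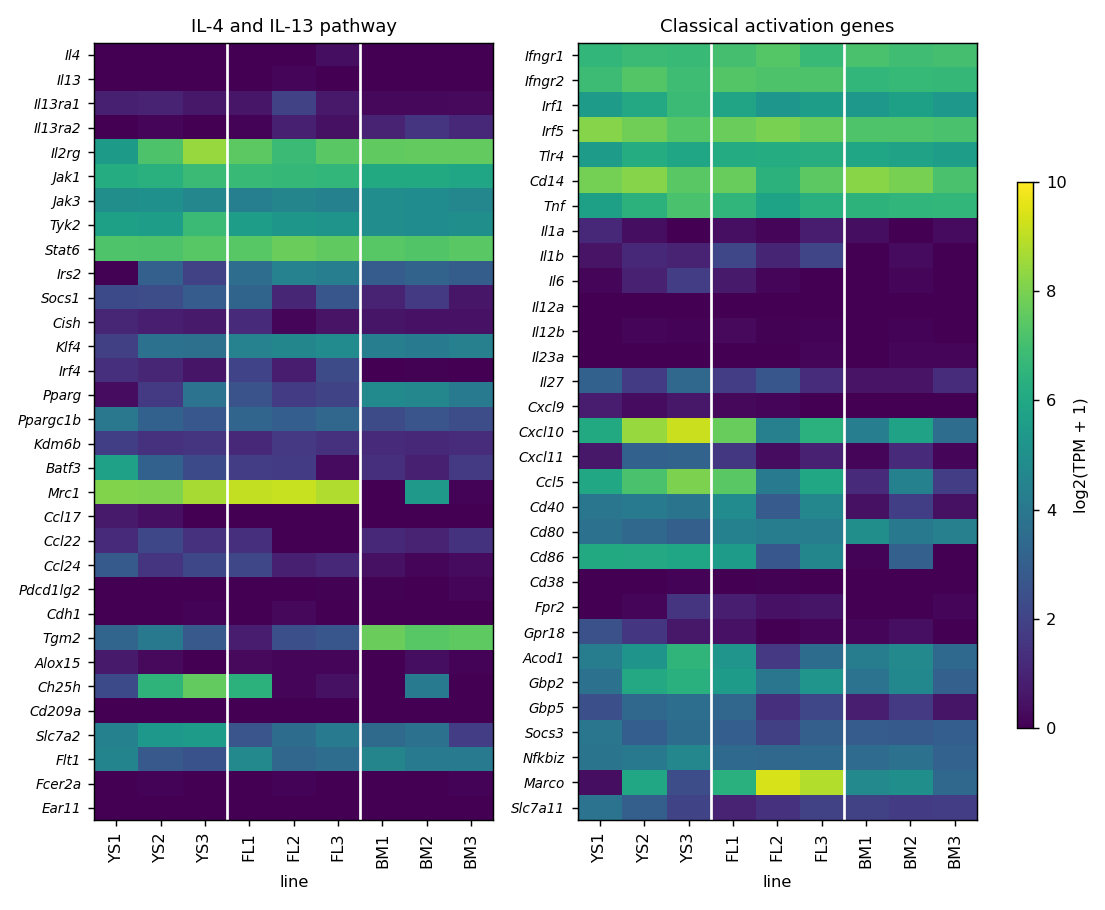
Levels of 32 interleukin-4 and interleukin-13 pathway genes and 31 classical activation genes in the 9 lines, coloured by log2(TPM + 1) from 0 to 10, with white lines between YS, FL and BM lines. Mrc1 was bright in the YS and FL lines and dim in the BM lines except line 2, Tgm2 was bright in the BM lines only, and Il12a and Il12b were near 0 in every line.

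Arginine feeds both arginase and nitric oxide synthase, so 20 genes of arginine, polyamine and nitric oxide metabolism were listed, of which 17 were tested. YS lines had 1 called higher (Slc7a2) and 2 lower (Nos1, Gatm) than BM lines, with a median of 0.11, equal to that of all tested genes to 2 decimals. FL lines had 2 calls, both lower (Odc1, Nos1), with a median of 0.31 against 0.09. Over all tested genes, 12.8% were called for YS against BM, 10.3% for FL against BM and 3.79% for YS against FL. YS and FL lines differed at Gatm only, lower in YS, a call that was lost without YS line 3, FL line 1 or FL line 2, while without BM line 3 there were 2 calls. Without YS line 1 and BM line 2 the counts for YS against BM, FL against BM and YS against FL were 3, 2 and 0, with the Gatm call of YS against FL at a limma adjusted p of 0.11. Slc7a2, the inducible arginine transporter that also stands in the interleukin-4 list, was at 19.75, 39.41 and 43.40 TPM across the YS lines, 5.17, 10.62 and 16.50 across the FL lines, and 10.05, 12.39 and 2.53 across the BM lines (log2 difference of YS over BM 2.05, limma adjusted p = 0.029). The constitutive transporter Slc7a1 was at 30.93 to 62.22 TPM everywhere and not called. It passed the false discovery rate but not the 2-fold limit for YS over BM (0.39, limma adjusted p = 0.09) and YS over FL (0.68, limma adjusted p = 0.049). Nos1, the neuronal nitric oxide synthase, was at 8.71, 11.36 and 13.15 TPM across the BM lines, at most 3.69 across the YS lines and at most 1.57 across the FL lines (log2 difference -2.41, limma adjusted p = 0.01, and -2.86, limma adjusted p = 0.0057). In every line but YS line 3, Nos1 lay above Nos2 and Nos3 in TPM, and Nos3 was at most 0.19 TPM in any line. In YS line 3, Nos1 was at 0.13 TPM and Nos2 at 0.44 TPM. Odc1, ornithine decarboxylase, the first enzyme of polyamine synthesis, was at 188.03 to 262.81 TPM in BM, 132.45 to 176.72 in YS and 85.17 to 127.68 across the FL lines (log2 difference of FL minus BM -1.19, limma adjusted p = 0.0041). Gatm, which uses arginine for creatine synthesis, was at 32.94 to 48.58 TPM across the YS lines, 71.65 to 140.00 across the FL lines and 86.60 to 122.44 across the BM lines.

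Ptgs2 acts between phospholipase A2 and the terminal prostanoid synthases, so 19 genes of that pathway were listed, and 12 were tested. YS lines had 1 called higher (Ptgir) and 1 lower (Ptges) than BM lines. FL lines had 1 higher (Tbxas1) and 3 lower (Pla2g4a, Ptges, Ptger4) than BM lines. YS lines had 1 called higher than FL lines (Ptger4), a comparison with 3 calls without FL line 1 and 0 without YS line 3, FL line 2 or 3, or any BM line, while the counts against BM lines stayed within 1.5 times. Without YS line 1 and BM line 2 the counts were 3, 5 and 1. The medians were 0.23, 0.08 and 0.24, against 0.11, 0.09 and 0.02 over all tested genes. In the same order, 12.8%, 10.3% and 3.79% of all tested genes were called. Pla2g4a, which releases arachidonic acid and is the chromosomal neighbour of Ptgs2, was at 215.65, 182.95 and 181.30 TPM across the BM lines, 106.60, 59.16 and 67.29 across the FL lines, and 180.92, 99.71 and 118.44 across the YS lines (log2 difference of FL minus BM -1.35, limma adjusted p = 0.009). Ptges, the inducible prostaglandin E synthase, was at 5.95 to 8.12 TPM across the BM lines, 0.51 to 1.77 across the YS lines and 0.54 to 1.37 across the FL lines (log2 difference -1.86, limma adjusted p = 0.0039, and -2.12, limma adjusted p = 0.0021). Ptger4, a prostaglandin E receptor, was at 0.87 to 2.82 TPM across the FL lines and 5.84 to 8.48 across the BM lines. The constitutive cyclooxygenase Ptgs1 was at 92.14 to 142.14 TPM across the YS lines, 42.07 to 67.35 across the BM lines, and 128.70, 3.92 and 5.14 across the FL lines, and was not called in any comparison. FL lines 2 and 3 were therefore low in both cyclooxygenase genes and FL line 1 in Ptgs2 alone. Hpgds, the prostaglandin D synthase of macrophages, differed by less than 2-fold, at 159.50 to 238.77 TPM in YS, 160.24 to 195.32 in FL and 99.84 to 105.41 across the BM lines. Against BM lines it passed the false discovery rate but not the 2-fold limit. The log2 difference was 0.96 for YS (limma adjusted p = 0.0044) and 0.74 for FL (limma adjusted p = 0.012).

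**Figure D4:**
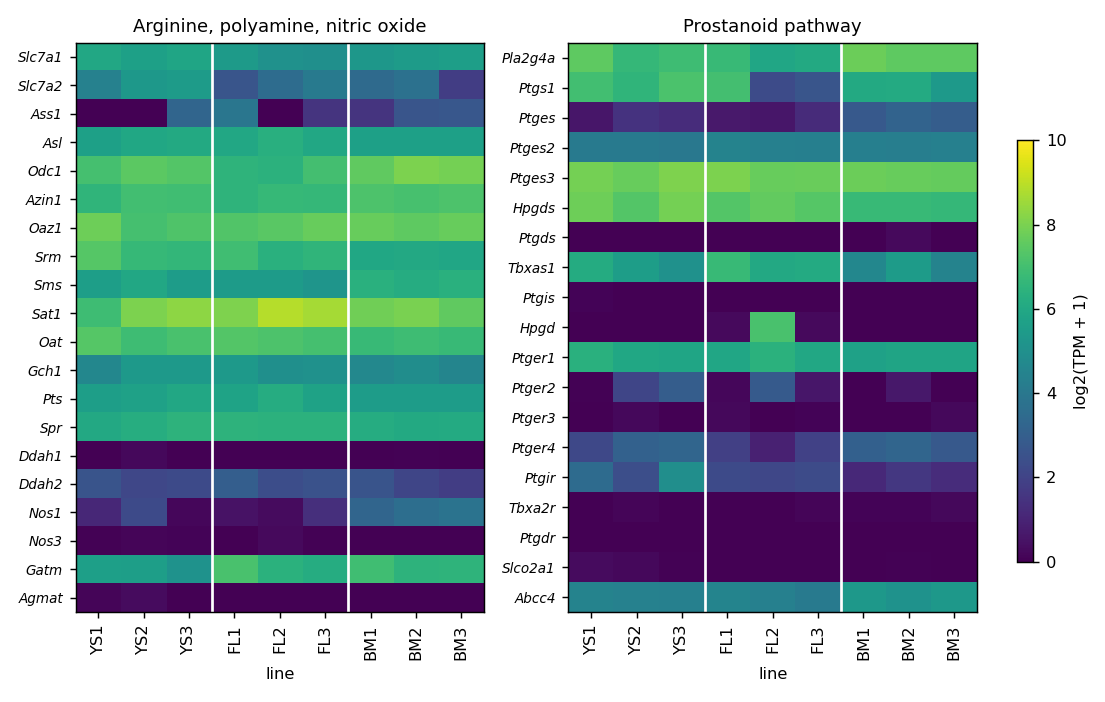
Levels of 20 genes of arginine, polyamine and nitric oxide metabolism and 19 prostanoid pathway genes in the 9 lines, coloured by log2(TPM + 1) from 0 to 10, with white lines between YS, FL and BM lines. Nos1 and Ptges were brightest in the BM lines, Ptgs1 was dim in FL lines 2 and 3, and Hpgd was bright in FL line 2 alone.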

How the data were processed

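RNA of 9 macrophage lines was poly(A)-selected, made into directional libraries and sequenced from one end to 75 nt. Values for 24411 symbols are TPM, deposited by the authors to 2 decimals. The submitters' processing notes name Trim Galore 0.6.6, STAR 2.7.9a and RSEM 1.3.3, and the genome build and annotation are not given in the sources used here. Each column sums to the same total, so TPM keeps no depth, and the spread among 3 lines is the measure of precision. Groups came from the sample labels. From the TPM, log2(TPM + 1) was computed, and the 11753 genes that reached 1 TPM in 3 libraries or more were fitted with limma 3.58.1 (R 4.3.3), an intensity trend and Benjamini-Hochberg adjustment in each comparison, tested on simulated data. The thresholds (false discovery rate under 0.1, more than 2-fold) are those of the study. Intervals of single genes are 95% intervals of that fit. Low members were compared by exact permutation tests.

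The members, lists and tests were chosen with earlier results of these data known. Named were all members, the listed genes called in a comparison or belonging to the interleukin-4 receptor system, and 3 genes most like each tested member in pattern. The cell type marker lists were an exception: they were given mainly as sums, and calls of their genes are not stated. Other listed genes, such as Tnf, Il6, Ptgs1, Hpgds, Slc7a1, Ccl17 and the relatives at 0, were named after their values were seen, as examples of genes without a call. The symbols Irg1 and Rnase2a stood for Acod1 and Ear11, and Ly6g was not matched. Alternatives changed the pseudocount, filter, scaling, variance trend, libraries in the fit, thresholds, a block for line number, and the lines left out. Leaving out YS line 1 together with BM line 2 was added after the data were seen. Line numbers are shared across groups without a stated pairing. Promoter windows are from RefSeq and shared stretches from GENCODE M21 transcripts. One gene of the classical list is not reported here and was left out of its counts. Other assays of the study were not analysed here.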

Additional observations from a re-analysis of the deposited data

How the results depend on the processing

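The differences of the 4 tested members were recomputed under 21 alternatives, which gave 246 values: 225 kept their direction and side of the threshold, 14 lost the call, 1 gained it and 6 reversed. Part of this was fixed in advance. A changed filter, variance trend, threshold or block, a fit of only the 6 libraries, or a line left out of the third group leaves the difference itself unchanged. These alternatives could move only the call, and dropping the fold threshold could only add calls. Clec10a and Il4ra were called higher in YS and FL than in BM lines under all 21. The number of members called was 2 to 3 for YS against BM. For FL against BM it was 4, except 2 with a pseudocount of 4 and 2 with a filter of 5 TPM. With the pseudocount of 4, Egr2 and Ptgs2 fell under the 2-fold limit on the more compressed log2 scale. The filter of 5 TPM removed both genes. For YS against FL it was 1 with a pseudocount of 0.1, with no filter, with a filter of 5 TPM and at a false discovery rate of 0.05, and 0 with only the 6 libraries compared. Leaving out 1 line in turn gave 3 to 3, 4 to 4 and 1 to 2 members called. The limma adjusted p of Clec10a in YS against FL ranged from 0.041 to 0.2 over the alternatives. The reversed values were all of differences without a call. Egr2 in YS minus FL became -0.0062 with quantile normalization, -0.12 without YS line 1 (also without YS line 1 and BM line 2) and -0.03 without FL line 2 (-0.12 to 0.36 over the lines left out), and Ptgs2 in YS minus BM became -0.068 without YS line 1 (up to 0.79 without another line) and -0.10 without YS line 1 and BM line 2. The cause was not tested. Quantile normalization moved the share of higher genes among the called from 59.2% to 48.7% for YS against BM, and fewer genes were called for YS against FL with only the 6 libraries compared (81 against 446). Same-numbered lines did not deviate together (r from -0.12 to 0.09 over 9 pairs, 0 above 0.1). With the line number as a replicate block, 3, 4 and 2 members were called, as without it, and 1503, 1191 and 409 genes in all against 1504, 1211 and 446. In YS against FL the block took the classical genes called from 2 to 1 and the prostanoid genes and relatives from 1 to 0 each, and in YS against BM the relatives from 2 to 1. Smaller list counts moved more: in YS against FL the 2 called interleukin-4 pathway genes and the 2 classical genes became 0 with only the 6 libraries compared.

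Depth is unknown, so a gene listed at 0 has no detection limit, and the members under 1 TPM were outside the test unless the filter was dropped. With 3 lines a group, an exact permutation test cannot go below 0.1.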

Other observations

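Some genes of the lists were high in a single line or in an uneven set of lines, which no comparison between groups describes. Hpgd, the enzyme that inactivates prostaglandins, was at 137.36 TPM in FL line 2, 0.19 and 0.18 in the other FL lines, and listed at 0 in the YS and BM lines. Ch25h, which makes an oxysterol from cholesterol, was at 3.71, 90.56 and 193.10 TPM across the YS lines, 85.77, 0.10 and 0.35 across the FL lines, and 0, 16.10 and 0 across the BM lines. Ass1, which regenerates arginine from citrulline, was listed at 0 in YS lines 1 and 2 and FL line 2, and reached 8.71 TPM in YS line 3 and 14.08 in FL line 1.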
